A study of Homo sapiens with 12 samples.

Results

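The proteasome genes were taken as all protein-coding RefSeq genes whose symbol begins with PSMA, PSMB, PSMC, PSMD, PSME, PSMF or PSMG, and 50 of 19974 protein-coding genes met that rule. Of these, PSMC3IP and PSME3IP1 share the beginning of the symbol but code for no proteasome subunit, and they were kept as members and marked as such. The data are lists of ChIP-seq summits, the positions where an enriched stretch peaks, for the histone marks H3K27ac and H3K4me1 in Huh7, an established human hepatocellular carcinoma cell line. The treated cells had 15 µM choline and the control cells 0 µM choline, each for 48 h. Both groups grew in a DMEM made without choline chloride, in which the serum had been replaced by B-27, a defined supplement. The H3K27ac list at 15 µM, that at 0 µM, the H3K4me1 list at 15 µM and that at 0 µM each came from 1 library, so every difference between doses is between single libraries, with no replicate check and no test. Of the series' 12 samples, the other 8 were not analysed here. All results come from 1 cell line.

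The proteasome is the barrel-shaped protease that degrades ubiquitin-tagged proteins in the cytosol and nucleus. Alpha and beta rings form its core particle, beta subunits hold the protease sites, and a regulatory particle with a base of ATPases and a lid receives, deubiquitinates and unfolds substrates. Most subunit genes are active in nearly all cells, and NFE2L1, a transcription factor held in check by the proteasome itself, raises many of them together when protein degradation falls short. H3K27ac lies at active promoters and enhancers. H3K4me1 lies at enhancers and on the flanks of active promoters. Choline is the precursor of phosphatidylcholine and, through betaine, a methyl donor in the liver.

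The H3K27ac lists held 29305 summits at 15 µM and 37946 at 0 µM, a ratio of list lengths of 0.772. For H3K4me1 they held 349202 and 343156 summits, a ratio of 1.02. Read depth is unknown, and the length of a list depends on depth and enrichment as well as on chromatin. Of 10 hepatocyte markers, 8 at 15 µM and 7 at 0 µM had an H3K27ac summit within 1 kb of a gene end, with 166 and 159 distinct summits within 50 kb, and none of the 7 was lost by the rule given below. Around 7 blood cell markers there were 5 distinct summits in each list, and around 7 fibroblast, stellate and endothelial markers 15 in each list. Each summit carries the authors' own score, read as a −log10 significance. It is used below to place a summit within its list, to group genes and to set score limits. With read depth unknown, scores of different libraries may not be on a common scale. Where scores of both doses stand side by side, they describe each list and do not measure a change in the mark.

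Promoter sequences of 44 members were taken from RefSeq (GRCh38.p14), each reaching from 250 bases before the annotated transcript start to 50 bases after it. The promoters of 3 members are printed because they stand for the outcomes at gene ends described below. PSMB5 had the highest end score at 15 µM among the members acetylated at both doses, PSMA5 had the highest end score at 0 µM among those acetylated only there, and PSMC1 was acetylated only at 15 µM. Each is read 5′ to 3′ on the gene's own strand. PSMB5 lies at chr14:23035171-23035470 on the minus strand, PSMA5 at chr1:109426399-109426698 on the minus strand and PSMC1 at chr14:90256303-90256602 on the plus strand. Capitals mark matches, on either strand, to 6 motifs: TGACNNNGC (the antioxidant response type element bound by NFE2L1 and NFE2L2), CCAAT (NF-Y), CCGGAAG (ETS factors), GGGCGG (the GC box of SP and KLF factors), CACCC (the KLF box) and CGCATGCG (nuclear respiratory factor).
PSMB5: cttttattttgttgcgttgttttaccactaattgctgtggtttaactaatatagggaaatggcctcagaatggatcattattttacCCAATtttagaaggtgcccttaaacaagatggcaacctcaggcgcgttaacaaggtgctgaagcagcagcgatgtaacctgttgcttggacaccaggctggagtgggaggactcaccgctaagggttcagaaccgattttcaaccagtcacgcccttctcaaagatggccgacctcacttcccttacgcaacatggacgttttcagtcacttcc
PSMA5: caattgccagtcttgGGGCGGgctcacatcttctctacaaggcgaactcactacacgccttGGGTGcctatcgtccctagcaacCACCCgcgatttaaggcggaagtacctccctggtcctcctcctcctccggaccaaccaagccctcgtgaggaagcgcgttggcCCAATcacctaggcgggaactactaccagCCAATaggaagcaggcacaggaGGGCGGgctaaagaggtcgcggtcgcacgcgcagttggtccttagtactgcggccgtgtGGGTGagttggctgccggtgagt
PSMC1: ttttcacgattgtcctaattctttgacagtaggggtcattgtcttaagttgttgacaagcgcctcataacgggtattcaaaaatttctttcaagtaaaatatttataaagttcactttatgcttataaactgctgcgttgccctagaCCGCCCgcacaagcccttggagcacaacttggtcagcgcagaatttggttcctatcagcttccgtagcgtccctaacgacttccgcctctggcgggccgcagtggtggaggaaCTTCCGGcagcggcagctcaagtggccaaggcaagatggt
The PSMB5 promoter held 1 match and 46.3% G and C, that of PSMA5 held 7 matches and 60.7%, and that of PSMC1 held 2 matches and 48.3%. The median over the 44 promoters was 62.0% (from 44.7% to 75.3%), against 62.7% over all 15812 promoters in the table.

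The first comparison asks whether H3K27ac at the ends of the proteasome genes differs between 15 µM and 0 µM choline. A gene end is either annotated end of the gene, and it was called acetylated when a summit lay within 1 kb. At 15 µM 15 of 50 members were acetylated (30.0%, exact 95% interval 17.9 to 44.6%), against 16.2% of all protein-coding genes. At 0 µM it was 25 of 50 (exact 95% interval 35.5 to 64.5%), against 28.3% of all genes. Thus fewer members were acetylated at 15 µM, and the share of members was above that of all genes at each dose. At both doses 12 of 50 members were acetylated, against 2696 of all 19974 genes. These 12 were PSMA3, PSMA4, PSMB1, PSMB5, PSMB10, PSMC2, PSMC6, PSMD1, PSMD4, PSMD5, PSMD7 and PSMD14. The intervals cover counting error only.

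An end was called lost when the 0 µM list had a summit within 1 kb and no 15 µM summit came closer than 2 kb to any of its ends, and gained in the opposite case. Of the 25 members acetylated at 0 µM, 10 were lost at 15 µM (40.0%, 21.1 to 61.3%), against 43.9% of all genes acetylated at 0 µM. The lost members were PSMA5, PSMB2, PSMB4, PSMC4, PSMC5, PSMD10, PSMD12, PSMD13, PSME4 and PSMG1, and none of the 10 had a 15 µM summit within 10 kb. Of the 15 members acetylated at 15 µM, 2 were gained (13.3%, 1.66 to 40.5%), PSMB6 and PSMC1, against 10.5% of all genes. Both shares are near those of all genes, and read as no result about the proteasome genes. In PSMA1, PSMA7 and PSMC3 the 15 µM summit lay between 1 and 2 kb from an end, and in PSMG3 the 0 µM summit did, so these 4 count neither as lost nor as gained. No H3K27ac end summit was listed at either dose for 22 members. That count was not taken over all genes, but at each dose a larger share of all genes than of members had no end summit.

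**Figure D1:**
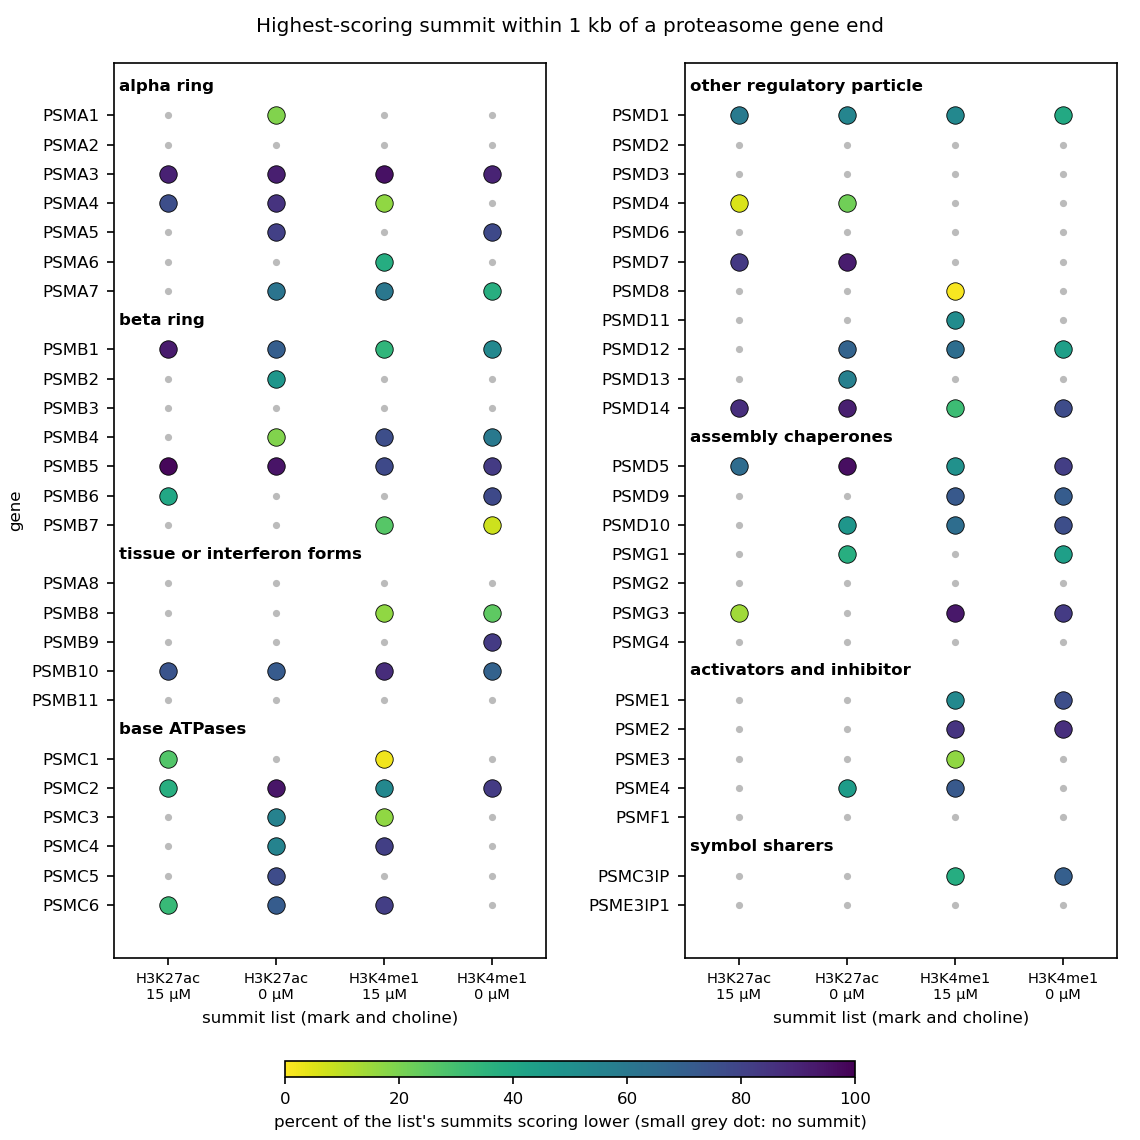
Highest-scoring summit within 1 kb of a gene end for each of the 50 members (rows, by class) in the 4 summit lists (columns); the colour gives the percent of that list's summits with a lower score, and a small grey dot means no summit. H3K27ac was listed at 15 members at 15 µM and 25 at 0 µM, and H3K4me1 at 29 and 23.

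Among the 7 beta ring genes of the standard core particle, 3 were acetylated at 15 µM and 4 at 0 µM, with 2 lost and 1 gained. PSMB5, the subunit with the chymotrypsin-like site and the main target of the drug bortezomib, lies at chr14:23025851-23035220. Its end carried 1 H3K27ac summit in each list, scoring 36.0 at 15 µM and 35.6 at 0 µM, 141 and 164 bp downstream of the start site. These scores were above those of 98.2% of the 15 µM list and 94.7% of the 0 µM list, so the mark was strong in each library. Its 50 kb window held 11 summits at 15 µM, against 8 at 0 µM. PSMB6, which holds the caspase-like site (chr17:4796164-4798495), had an end summit of score 9.46 at 15 µM and none at 0 µM, where the nearest lay 5953 bp away. Its window went the other way, with 3 summits at 15 µM and 10 at 0 µM. PSMB7, which holds the trypsin-like site (chr9:124353465-124415442), had no end summit in either list, but 9 window summits at 15 µM and 4 at 0 µM. All 9 and all 4 lay inside the gene body, at least 12305 bp from an end at 15 µM and 20187 bp at 0 µM.

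The other beta ring subunits have no protease site of their own. PSMB1 (chr6:170535120-170553307) was acetylated at both doses, with 1 end summit of score 23 at 15 µM and 3 of at most 14.8 at 0 µM, where 1 of the 3 also lay within 1 kb of an end of TBP. PSMB2 (chr1:35599541-35641526) was lost: its 0 µM summit scored 10.9 and lay 947 bp upstream of the start site, while 3 window summits remained listed at 15 µM against 4 at 0 µM. PSMB4 (chr1:151399573-151401937) was lost too, with a 0 µM summit of score 7.65, above only 18.9% of its list, and 0 window summits at 15 µM against 1 at 0 µM. PSMB3 (chr17:38752741-38764225) had no end summit in either list, and its nearest 0 µM summit lay 1499 bp from an end.

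In the alpha ring, whose subunits gate entry to the core, 2 of 7 genes were acetylated at 15 µM and 5 at 0 µM. The only lost gene of this class was PSMA5 (chr1:109399042-109426448). It had no end summit at 15 µM, where the nearest lay 184091 bp away, against 2 at 0 µM, of scores 18.8 and 14.0, 228 bp downstream and 564 bp upstream of the start site printed above. Its window held 0 summits at 15 µM, against 3 at 0 µM, so the whole neighbourhood was without H3K27ac summits in the treated library. PSMA3 had 3 end summits in each list, with the highest scores at different ends. By its start site the score was 17.6 at 15 µM and 28.9 at 0 µM. By its other end the highest was 20.9 at 15 µM and 12.1 at 0 µM. PSMA4 had 1 end summit in each list, 133 and 134 bp from its lower end. It scored 14.4 at 15 µM (above 76.2% of that list) and 21.8 at 0 µM (above 85.5%). PSMA1 (chr11:14504876-14643662) is the longest member, and its only 0 µM end summit (score 7.65) lay by an end of PDE3B. The start site that RefSeq gives for PSMA1 lies 15510 bp inside the annotated gene, and there each list had 2 summits, of highest score 18.7 at 15 µM and 14.8 at 0 µM. PSMA6 was similar, with a start site 13759 bp inside the gene and 2 summits there in each list, of highest score 10.7 at 15 µM and 19.2 at 0 µM. By transcript start these members were therefore acetylated at both doses. PSMA2 (chr7:42916861-42932174) had no H3K27ac summit within 50 kb in either list.

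The 6 base ATPases, which unfold substrates and thread them into the core, had 3 acetylated ends at 15 µM and 5 at 0 µM. PSMC1 (chr14:90256553-90275429) was gained, with a summit of score 8.27 at 15 µM 646 bp downstream of its start site, and no 0 µM summit within 50 kb. It scored above 27% of its list, so the gain rests on a weak summit. PSMC2 (chr7:103347524-103369395) had an end summit in each list, which scored 9.15 at 15 µM (above 37.3% of that list) and 34.7 at 0 µM (above 94.3%). The window of PSMC2 held 1 summit at 15 µM and 4 at 0 µM. PSMC4 (chr19:39971165-39981764) and PSMC5 (chr17:63827431-63832019) were lost, with 0 µM scores of 11.9 and 17.1. Around PSMC4 other summits were still listed at 15 µM, 6 in the window against 5 at 0 µM, whereas around PSMC5 there were 0 at 15 µM and 3 at 0 µM. PSMC6 (chr14:52707200-52728590) was acetylated at both doses, with 4 window summits in each list. Its highest end score was 8.68 at 15 µM (above 32.8% of that list) and 14.9 at 0 µM (above 71.1%). PSMC3 (chr11:47418775-47426439) had its 15 µM summit 1296 bp from an end and its 0 µM summit 628 bp upstream of the start site.

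Of the 11 other genes of the regulatory particle, 4 were acetylated at 15 µM and 6 at 0 µM. PSMD14 (chr2:161308425-161411717), the deubiquitinase that cuts ubiquitin chains from substrates, had 2 end summits at 15 µM, the higher of score 18.4, and 1 of score 29.0 at 0 µM. PSMD7, which pairs with PSMD14, had a highest end score of 16.4 at 15 µM (above 83.3% of that list) and 30.1 at 0 µM (above 92.2%). PSMD1 (chr2:231056867-231172827), a large scaffold of the base, had 2 end summits in each list, with highest scores of 11.4 and 11.7. It also had the most window summits of all members at 15 µM, 22 against 14 at 0 µM, of which 11 and 6 lay inside the gene. PSMD4, a ubiquitin receptor, was acetylated at both doses, but at different ends: its 15 µM summit (score 6.03) lay 841 bp from the higher end and its 0 µM summit (score 7.93) 160 bp from the lower end. The lost genes were the lid subunits PSMD12 (chr17:67337916-67366577) and PSMD13 (chr11:236976-252984), with 0 µM scores of 14.6 and 12.1. The PSMD13 summit lay within 1 kb of an end of SIRT3 as well. PSMD11 (chr17:32444510-32483319), another lid subunit, had no end summit, with 1 window summit at 15 µM, 1247 bp from an end, and 0 at 0 µM.

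The assembly chaperones bind part-built proteasomes and are not part of the finished enzyme. Of 7, 2 were acetylated at 15 µM and 3 at 0 µM. PSMD5 (chr9:120816053-120842922), a chaperone of the base, had the highest end score of any member at 0 µM, 40.7 (above 96.2% of that list). At 15 µM its end summit scored 12.1 (above 65.1%), and both summits lay upstream of its start site. Its window held 17 summits at 15 µM, against 21 at 0 µM. PSMD10 (chrX:108084207-108091542), a base chaperone also known as gankyrin and described as an oncoprotein in liver cancer, was lost. Its 0 µM summit scored 10.9, and the window held 0 summits at 15 µM, against 3 at 0 µM. PSMG1 (chr21:39174769-39183514), a chaperone of the alpha ring, was lost as well, with a single 0 µM summit of score 9.69 that also lay within 1 kb of an end of BRWD1. PSMD9 (chr12:121888790-121918297) had no end summit and 1 window summit in each list.

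The remaining classes had few acetylated ends. Of the 5 genes of forms found in certain tissues or made under interferon, PSMB10 (chr16:67934506-67936850) was the only acetylated gene, with 1 end summit of score 13.8 at 15 µM and 2, the higher of score 15.4, at 0 µM. PSMB10, PSMB8 and PSMB9 replace PSMB7, PSMB5 and PSMB6 in the immunoproteasome. PSMB8 (chr6:32840717-32844679) had no summit within 50 kb in either list, and PSMB9 (chr6:32854192-32859851) had 1 in each. PSMA8, a testis form (chr18:26133869-26193355), had 0 window summits at 15 µM, against 1 at 0 µM. PSMB11, a thymus form (chr14:23042212-23044060), had 7 and 5, but it lies 6992 bp from PSMB5 and none of those summits was nearest to PSMB11. Of the activators, PSME4 (chr2:53864069-53970993), the large activator known for a part in spermatogenesis and histone degradation, was lost, with 2 summits of at most 10.6 at 0 µM, both within 1 kb of an end of ACYP2. PSME1 (chr14:24136194-24138962) and PSME2 (chr14:24143365-24146610), the interferon-inducible activator pair, lie 4403 bp apart and had 3 window summits each at 15 µM and 5 each at 0 µM. PSME3 (chr17:42833397-42843760), a nuclear activator, had 1 at 15 µM and 0 at 0 µM. The inhibitor PSMF1 had no H3K27ac summit within 50 kb in either list. Of the genes that only share the symbol, PSMC3IP (chr17:42572310-42577831), a meiotic recombination factor, had 1 window summit at 15 µM and 3 at 0 µM, and PSME3IP1 (chr16:57152466-57186116), a partner of PSME3, had 0 and 4.

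Among all genes, ends with weaker 0 µM summits were lost more often. Over all genes acetylated at 0 µM, cut into 4 groups of like size by the highest 0 µM end score, 68.2% were lost in the group of lowest scores, then 54.0%, 37.7% and 15.9% in the highest. Of the proteasome genes 2 of 4, 5 of 8, 3 of 6 and 0 of 7 were lost in the same groups. Each of the 7 members in the group of highest scores thus had a 15 µM summit within 2 kb of an end. Weighted to the members' own spread over the groups, the share lost of all genes was 41.7%, close to the members' 40.0%. The median highest end score at 0 µM was 14.6 for the members and 14.4 for all acetylated genes.

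Within 50 kb of the gene ends, the proteasome genes had 143 distinct H3K27ac summits at 15 µM and 190 at 0 µM. This ratio of 0.753 (exact 95% interval 0.602 to 0.94, counting error only) lies beside the ratio of list lengths, 0.772, so the members' windows held fewer summits at 15 µM in about the proportion of the whole list. The median window held 1 summit at 15 µM and 3 at 0 µM, and 14 and 7 windows held none (28.0% and 14.0%). For all genes the median was 1 at 15 µM and 2 at 0 µM, and 48.8% and 35.0% of windows held none. Empty windows were thus rarer among the members than among all genes at each dose. By raw counts 10 members had more at 15 µM, 31 fewer and 9 the same number. Over all genes the shares were 11% more, 46.8% fewer and 42.2% equal. The window fold was the 15 µM count over the 0 µM count scaled by the list lengths, each with 1 added, and its median over the members was 0.9 (from 0.245 to 2.45). A fold of 2 or more was reached by 4 members, against 3.45% of all genes, namely PSMB7, PSMC1, PSMD11 and PSME3, the last 3 with 1 summit at 15 µM and 0 at 0 µM. A fold of 0.5 or less was reached by 7 members, against 11.9% of all genes: PSMA5, PSMB3, PSMB6, PSMC2, PSMC5, PSMD10 and PSME3IP1. Except around PSMB6, these 7 windows held at most 1 summit at 15 µM and at most 4 at 0 µM.

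**Figure D2:**
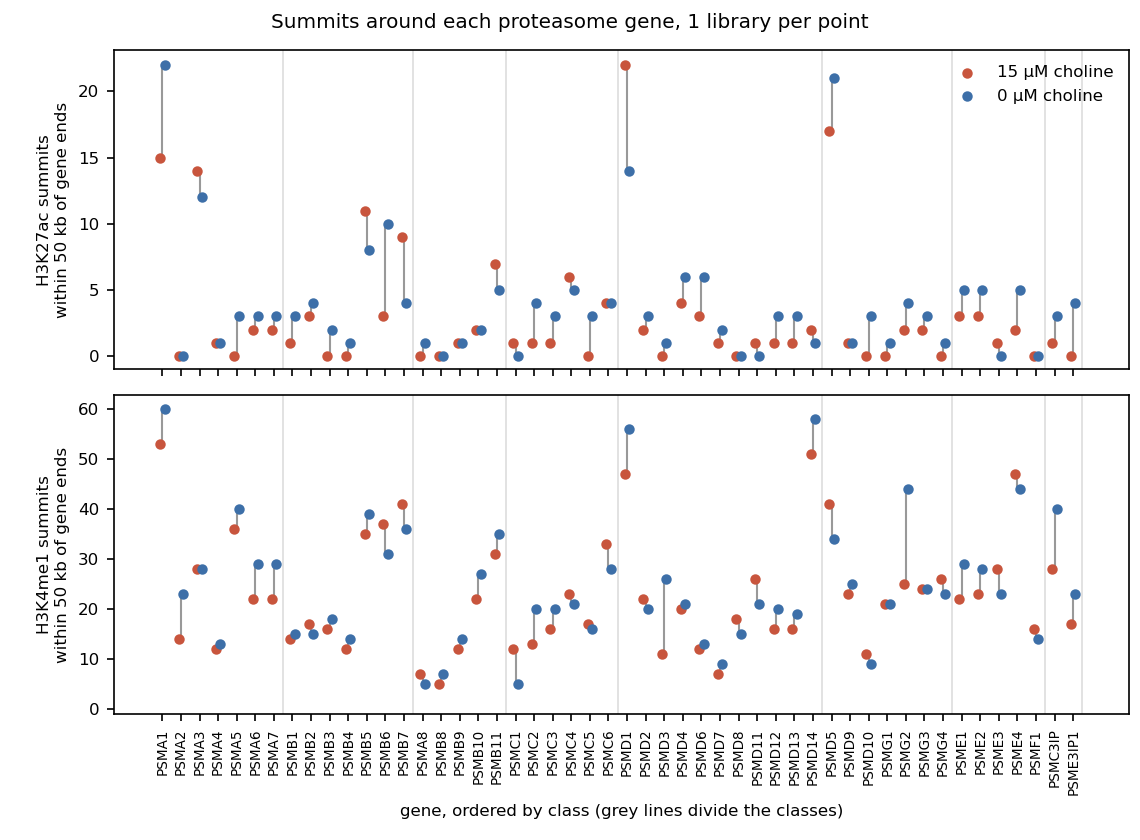
Summits within 50 kb of the gene ends for each member at 15 µM (red) and 0 µM (blue) choline, H3K27ac above and H3K4me1 below, 1 library per point, on linear axes. The median H3K27ac window held 1 summit at 15 µM and 3 at 0 µM, and the largest counts stood at PSMA1, PSMD1 and PSMD5.

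The H3K27ac summits in these windows were distal less often than those in the windows of all genes. Distal summits, over 2.5 kb from every protein-coding gene end, made up 55.9% of the members' H3K27ac window summits at 15 µM (interval 47.4 to 64.2%) and 51.6% of those at 0 µM (interval 44.2 to 58.9%). In the windows of all genes the distal share was 71.0% at 15 µM and 64.9% at 0 µM. Only 42.0% and 34.7% of the members' window summits had a member's end as their nearest gene end. Most of the summits counted in a window were thus closer to an end of another gene, though some of these lay inside a member. Below, nearest to a gene means nearest to one of its ends. Around PSMB6, 1 of 3 summits at 15 µM and 0 of 10 at 0 µM were nearest to PSMB6 itself. Around PSMA1, PSMA3 and PSMB7 the gene's own share was larger, with 11 of 15, 9 of 14 and 9 of 9 summits nearest to the gene at 15 µM, and 10 of 22, 8 of 12 and 4 of 4 at 0 µM.

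Strand and start site were known for 44 members, and there the H3K27ac summits gathered at the start. Within 1 kb of the start site the members had 17 summits at 15 µM and 33 at 0 µM, or 38.6 and 75.0 per 100 genes. Over all 15812 genes with a start site there were 19.4 and 36.7 per 100 genes. The members had more at each dose, and fewer at 15 µM than at 0 µM, as all genes did. In the 500 bp just before the start the members had 7 summits at 15 µM and 11 at 0 µM, and in the 500 bp just after it 6 and 12. Counted by start site alone, 13 of 44 members were acetylated at 15 µM and 24 at 0 µM, and 11 of the 24 were lost. By the same count 15.9% and 28.7% of all genes were acetylated, and 45.4% of those acetylated at 0 µM were lost. The lost gene added by this count was PSMG4, an alpha ring chaperone whose start site lies 4543 bp inside the annotated gene and which had a 0 µM summit of score 8.7 there.

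**Figure D3:**
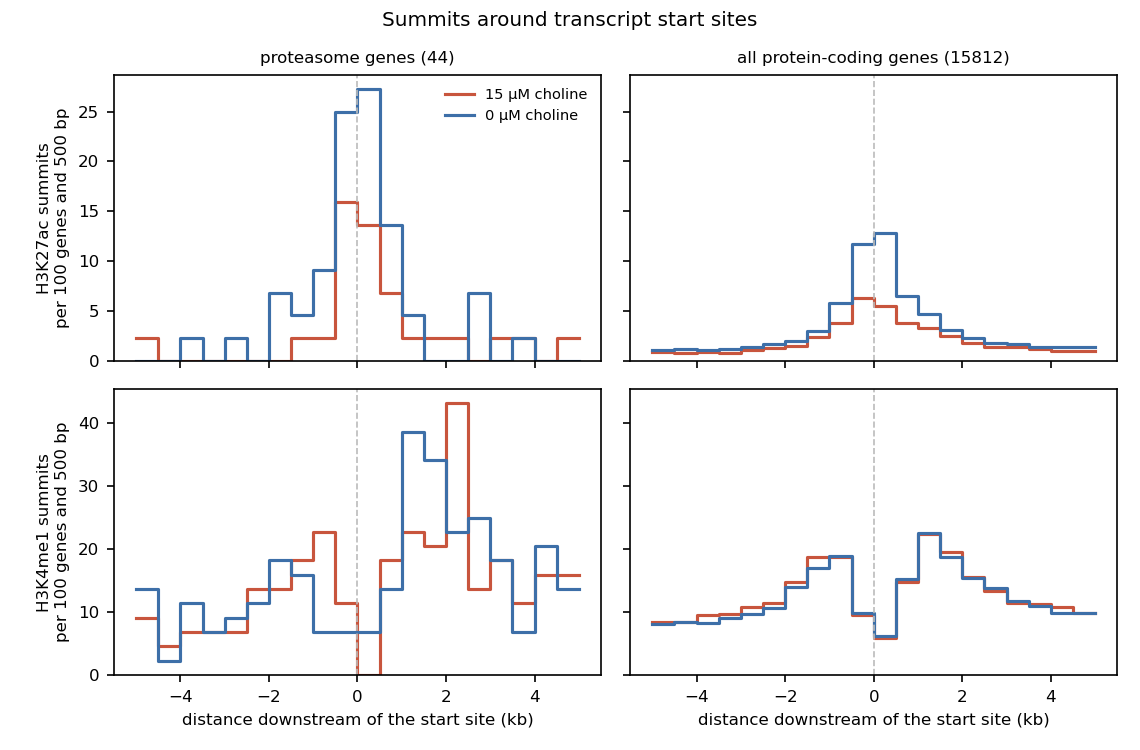
Summits per 100 genes in 500 bp bins from 5 kb upstream to 5 kb downstream of the start site, at 15 µM (red) and 0 µM (blue), for 44 proteasome genes (left) and 15812 protein-coding genes (right). H3K27ac (top) peaks at the start, with 38.6 and 75.0 summits per 100 proteasome genes within 1 kb; H3K4me1 (bottom) is low there and higher on either side.

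The members were also split by whether another gene lies at their ends. This split was chosen after values had been seen, and the difference between the members and all genes was not tested. Another protein-coding gene had an end within 1 kb of an end of 21 members, and of these 1 was acetylated at 15 µM (4.76%, 0.12 to 23.8%) and 8 at 0 µM (38.1%, 18.1 to 61.6%), with 5 of the 8 lost. Of the 29 members without such a neighbour, 14 were acetylated at 15 µM (48.3%, 29.4 to 67.5%) and 17 at 0 µM (58.6%, 38.9 to 76.5%), with 5 of the 17 lost. The intervals of these shares overlap at 0 µM. Among all genes, with a neighbour 23.6% were acetylated at 15 µM and 41.6% at 0 µM, and without a neighbour 13.2% and 22.9%. The share lost among all genes was 44.4% with a neighbour and 43.6% without. The member with a neighbour that was acetylated at 15 µM was PSMC2, which shares its end summit with PMPCB. A summit near an end of PSMA1, PSMA7, PSMB1, PSMC2, PSMC5, PSMD13, PSME4 or PSMG1 also lay within 1 kb of an end of another gene (PDE3B, SS18L1, TBP, PMPCB, FTSJ3, SIRT3, ACYP2 and BRWD1, in that order), and this applied to 1 of 19 end summits at 15 µM and 11 of 37 at 0 µM. To which gene of such a pair a summit belongs cannot be told apart here.

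**Figure D4:**
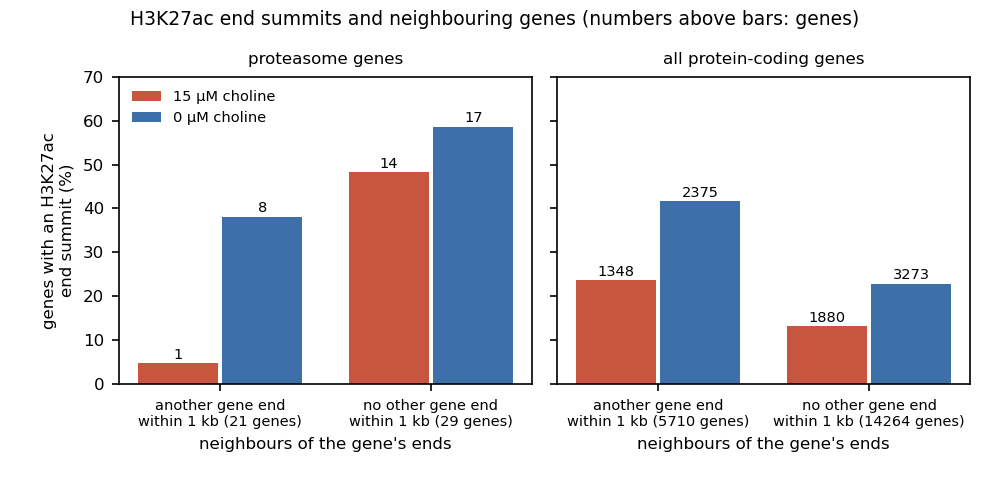
Share of genes with an H3K27ac end summit at 15 µM (red) and 0 µM (blue), for genes with and without another protein-coding gene end within 1 kb, among 50 proteasome genes (left) and 19974 protein-coding genes (right). Numbers above the bars count genes; with a neighbour 1 and 8 of 21 members were acetylated, and without a neighbour 14 and 17 of 29.

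The second comparison asks the same of H3K4me1. At 15 µM 29 of 50 members had an H3K4me1 end summit (58.0%, 43.2 to 71.8%), against 52.9% of all genes. At 0 µM 23 did (46.0%, 31.8 to 60.7%), against 51.6% of all genes. At both doses 19 of 50 members did, against 7315 of all 19974 genes. The members' share thus lay above that of all genes at 15 µM and below it at 0 µM, within the counting intervals in both cases. The order of the doses depended on the setting. With scores of at least 5 there were 10 members at 15 µM and 15 at 0 µM, against 18.5% and 19.8% of all genes. With ends reaching 2 kb there were 39 and 43 members, against 75.2% and 73.5% of all genes. Lost members numbered 1 of 23 (4.35%, against 8.92% of all genes), PSMB6, and gained members 1 of 29 (3.45%, against 10.9% of all genes), PSMA6.

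Of the base ATPases, 5 of 6 had an H3K4me1 end summit at 15 µM and 1 of 6 at 0 µM, the widest gap of any class. PSMC1, PSMC3, PSMC4 and PSMC6 had it only at 15 µM, with scores of 1.54, 2.2, 7.08 and 7.42, and PSMC2 had it at both doses, with 3.73 at 15 µM and 7.41 at 0 µM. In each of these 4 genes a 0 µM summit lay just beyond 1 kb, at between 1068 and 1273 bp, so none counts as gained. The highest H3K4me1 end scores of the members were 16.9 at PSMA3 and 14.0 at PSMG3 at 15 µM, and 9.94 at PSMA3 at 0 µM. PSMB10 had 4 end summits at 15 µM, the highest of score 9.5, and 2 at 0 µM, the highest of score 5.09. PSME1 and PSME2, without H3K27ac at an end, had H3K4me1 there at both doses, with highest scores of 3.72 and 8.44 at 15 µM and 5.98 and 8.5 at 0 µM. Around the 44 known start sites H3K4me1 was sparse just after the start and dense further downstream. The first 500 bp held 0 summits per 100 genes at 15 µM and 6.82 at 0 µM, against 5.82 and 6.19 over all genes. From 1 to 5 kb downstream there were 161 and 180 per 100 genes, against 114 and 113 over all genes. In the 1 kb before the start the members had 15 summits at 15 µM and 6 at 0 µM, or 34.1 and 13.6 per 100 genes, against 28.3 and 28.7 over all genes. In the 1 kb after it they had 8 and 9, or 18.2 and 20.5 per 100 genes, against 20.5 and 21.5 over all genes.

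The members' 50 kb windows held 1096 distinct H3K4me1 summits at 15 µM and 1182 at 0 µM. The ratio was 0.927 (0.853 to 1.01), against a ratio of list lengths of 1.02, which lies above that interval. With scores of at least 5 the ratios were 0.954 for the members and 0.959 for the lists, and without PSMC3IP and PSME3IP1 the interval reached 1.02. More summits at 15 µM were counted for 17 members, fewer for 30 and as many for 3, whereas 48.9% of all genes had more and 41.5% fewer. The windows of the members ran from 5 to 53 summits at 15 µM and from 5 to 60 at 0 µM. A fold of 2 or more was reached by 1 member, PSMC1, with 12 summits at 15 µM and 5 at 0 µM, against 2.78% of all genes. A fold of 0.5 or less was reached by 1, PSMD3, a lid subunit, with 11 and 26 summits, against 2.97% of all genes. PSMC1 was thus higher in both marks at 15 µM, though the H3K27ac difference rests on 1 summit. The distal share of the members' H3K4me1 summits was 70.5% at 15 µM and 73.3% at 0 µM, against 82.5% and 82.7% in the windows of all genes.

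Set together, the marks met at 12 members' ends at 15 µM and at 14 at 0 µM. Of the acetylated members 80.0% carried H3K4me1 at 15 µM and 56.0% at 0 µM, against 63.1% and 63.9% of all acetylated genes. Neither mark was listed at an end of 18 members at 15 µM (36.0%) and 16 at 0 µM (32.0%). Over all genes these shares were 41.2% and 38.1%. PSMB6 alone changed in both marks by the rules above. Its end had an H3K27ac summit and no H3K4me1 summit within 2 kb at 15 µM, and at 0 µM 2 H3K4me1 summits, the higher of score 6.35, and no H3K27ac summit within 2 kb. Of all 19974 genes 141 were lost or gained in both marks (0.706%), in 9 of which H3K27ac was gained and H3K4me1 lost. A single member cannot be read against that share. The PSMB6 summit of H3K27ac scored 9.46, above 40.6% of its list, and this gain did not pass a score limit of 10.

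Promoter motifs were counted in the 44 members and in all 15812 promoters of the same length. TGACNNNGC was found in 13 members (29.5%, 16.8 to 45.2%), against 14.3% of all promoters. CCGGAAG was found in 14 (31.8%, 18.6 to 47.6%), against 14.2%. CCAAT was found in 21 (47.7%) against 36.3%, GGGCGG in 30 (68.2%) against 58.5%, CACCC in 26 (59.1%) against 62.9% and CGCATGCG in 1 (2.27%, PSMA4) against 2.88%. With both strands searched, the intervals of the first and the second lay above the share of all promoters, and those of the other 4 took it in. That division depends on the strand: on the gene's own strand alone CCAAT was in 16 members (36.4%, 22.4 to 52.2%), above the 21.1% of all promoters, and GGGCGG in 16 (36.4%), below the 40.5% of all promoters. On that strand TGACNNNGC was in 10 members (22.7%, 11.5 to 37.8%), against 7.29%, and CCGGAAG in 8 (18.2%, 8.19 to 32.7%), against 8.04%. An overlap between these motifs was not removed, since each was counted by itself. TGACNNNGC was in 6 of the 23 searched members with an H3K27ac end summit at either dose and in 7 of the 21 without. CCGGAAG lay in 3 of 6 base ATPase and 6 of 10 other regulatory particle promoters, but in 0 of 6 alpha ring and 0 of 4 beta ring promoters. Only 3 members held both. The matches to TGACNNNGC in the 6 members with an H3K27ac end summit are printed with up to 10 bases on either side, 5′ to 3′ on the strand that reads as the motif, with the match in capitals. PSMD1, PSMD12, PSMD5 and PSMG1 read along the gene, and PSMC4 and PSME4 against it.
PSMC4: tcctccatagTGACCAAGCcggcctctgt
PSMD1: aggaggcgacTGACTGAGCag
PSMD12: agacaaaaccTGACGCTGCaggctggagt
PSMD5: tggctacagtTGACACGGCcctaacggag
PSME4: gctctgctggTGACGCTGCagccgccggg
PSMG1: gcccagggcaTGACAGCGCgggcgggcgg
Of these 6, PSMD1 and PSMD5 were acetylated at both doses and PSMC4, PSMD12, PSME4 and PSMG1 were lost. PSMD12 and PSME4 have the same middle letters, GCT, and none of the 15 matches in all 13 members has TCA there, the letters of the classical NFE2 site. A match is a description of letters and says nothing of binding in these cells.

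Gene lists around the proteasome were measured in the same way. Among 18 other proteasome genes (the subunits SEM1 and ADRM1, the deubiquitinases UCHL5 and USP14, the chaperone POMP, the shuttle factor UBQLN1, and others), 5 were acetylated at 15 µM and 15 at 0 µM. Of those 15, 10 were lost (66.7%, 38.4 to 88.2%), among them POMP, with 0 end summits at 15 µM and 1 of score 9.69 at 0 µM, and USP14, with 0 and 1 of score 8.55. ADRM1, a ubiquitin receptor, was acetylated at both doses, with scores of 13.3 at 15 µM and 22.1 at 0 µM. Of 7 genes of the p97 unfoldase, which extracts proteins for the proteasome, 1 was acetylated at 15 µM and 5 at 0 µM, 4 of the 5 lost. VCP, the unfoldase itself, had 0 end summits at 15 µM and 2 at 0 µM, the higher of score 18.6. The windows of this list held 10 summits at 15 µM and 37 at 0 µM, a ratio of 0.27, against 0.772 for the list lengths. UBXN1 alone, without an end summit in either list, had 4 of the 10 and 15 of the 37.

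Of 7 genes that control proteasome genes, 1 was acetylated at 15 µM and 4 at 0 µM, with 1 lost. NFE2L1 had 1 end summit of score 11.3 at 15 µM and 2, the higher of score 18.5, at 0 µM. Of 6 ubiquitin and E1 genes, 1 and 3 were acetylated and 2 were lost. Of 9 antigen processing genes, 1 was acetylated in each list and none was lost. Of 8 genes of the CCT chaperonin, a folding machine of similar ring build, 4 were acetylated at 15 µM and 7 at 0 µM, with 3 lost. Of 81 cytosolic ribosomal protein genes, 30 and 64 were, with 32 lost (exact 95% interval 37.2 to 62.8%). The interval of the share lost takes in 43.9%, the share over all genes, for the proteasome genes and for each of the lists drawn in the plot of shares, but not for the hepatocyte markers, of which 0 of 7 were lost (0 to 41%). The difference between lists was not tested.

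**Figure D5:**
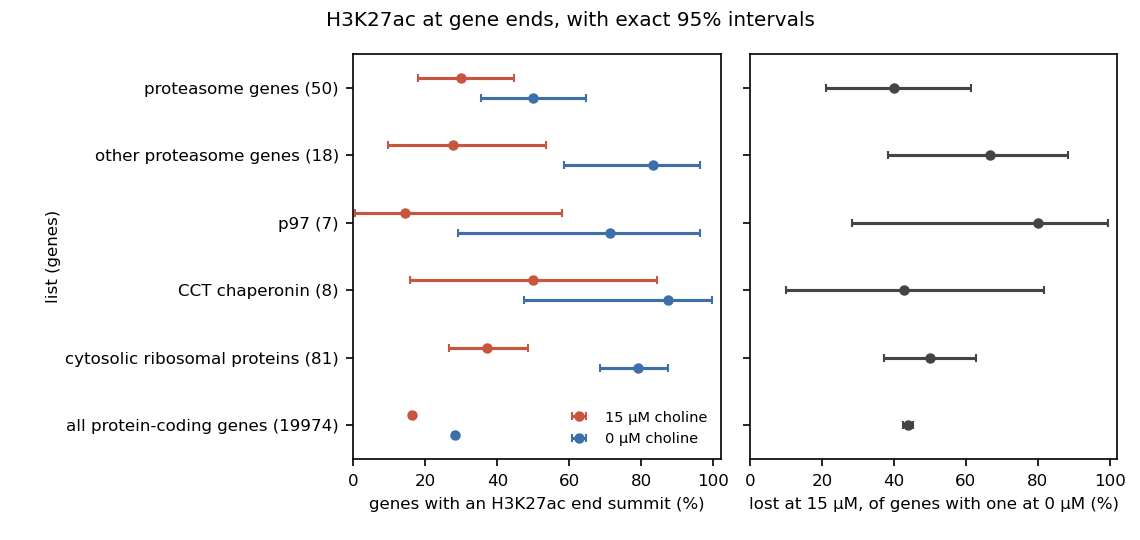
Share of genes with an H3K27ac end summit at 15 µM (red) and 0 µM (blue), left, and share of the genes acetylated at 0 µM that were lost at 15 µM, right, for the proteasome genes and 4 other lists, and for all protein-coding genes. Lines are exact 95% intervals for counting error; the share lost was 40.0% for the proteasome genes and 43.9% for all genes.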

How the data were processed

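The authors deposited 1 list of summits per ChIP-seq library, each with its position and score. The columns follow MACS2 summit files, so the deposited score was taken as −log10 of a p-value or of a q-value; which, with what settings and with which inputs is not given in the sources used here. Per the submitters' processing notes, MACS2, Bowtie, deepTools and Picard were used (no versions) on build hg38. Groups came from the labels. Summits of the autosomes and X were used, with 1-based positions. Genes were placed by the RefSeq table of GRCh38.p14, which gives no exons or UTRs, and start sites from RefSeq promoters. The members, gene lists, rules and motifs were chosen with earlier results of these data known. The genes described in full were chosen by a rule: members with a lost or gained H3K27ac end or a window fold past 2 or 0.5, the catalytic subunits, and up to 2 others per class in symbol order, which gave 36 genes; other members are named to account for their class. Members named in the H3K4me1 results by their scores, and genes of other lists, were chosen after their values were seen. Lists set beside the members hold other proteasome genes, proteasome gene control, ubiquitin and E1, p97, antigen processing, the CCT chaperonin, ribosomal proteins and 3 sets of cell type markers. Shares carry exact Clopper-Pearson 95% intervals, and the ratio of window counts an interval from the exact binomial of both counts. The calls were tested on simulated data. Alternatives covered distances, score limits, list lengths, start sites, windows and members. Python 3.11.15, pandas 2.3.3, NumPy 2.4.6 and SciPy 1.17.1 were used.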

Additional observations from a re-analysis of the deposited data

How the results depend on the processing

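With 1 library per mark and dose, every value stands without a replicate, read depth is unknown, and a summit near an end may belong to another gene. No paired analysis was possible because the groups compared hold 1 library each and no test was run. Of 96 alternative values for the main results, 68 stayed within 1.5 times the reported count or within the counting interval and 28 did not. The H3K27ac counts of members acetylated at 0 µM and of lost members, and both ratios of window summits, moved under no alternative tried. With lists of equal length the H3K27ac ratio was 0.883 (0.7 to 1.11), against 1.0 for the lists, which lies within that interval. The gap between the H3K4me1 ratio and that of the lists was gone with scores of at least 5 (0.954 and 0.959). Percents in brackets below give the share of all genes under the same setting. For lost ends the share is of genes with an end summit at 0 µM, for gained ends at 15 µM. Acetylated members at 15 µM came to 9 with scores of at least 10 (9.81%), against 15 (16.2%). Gained H3K27ac members (2) came to 1 within 500 bp (10.1%), 4 within 2 kb (12.3%) and 0 with scores of at least 10 (13.3%). They came to 1 by start site (10.4%) and 1 with absence taken to 10 kb (5.7%). Members with a higher H3K27ac window (4) came to 1 with scores of at least 10 (3.31%). Within 20 kb they came to 7 (3.82%), and within 100 kb to 1 (2.79%). Members with a lower H3K27ac window (7) came to 15 with lists of equal length (18.7%) and 4 within 20 kb (8.53%). For H3K4me1, end summits at 15 µM (29) came to 15 within 500 bp (27.7%) and 10 with scores of at least 5 (18.5%). At 0 µM (23) they came to 14 within 500 bp (26.9%) and 43 within 2 kb (73.5%). With scores of at least 5 they came to 15 (19.8%), and by start site to 14 (40.6%). Lost H3K4me1 members (1) came to 6 within 2 kb (10.5%) and 5 with scores of at least 5 (26.5%). They came to 2 by start site (12.4%) and 0 with absence taken to 10 kb (1.77%). Gained H3K4me1 members (1) came to 0 within 500 bp (10.7%), 2 within 2 kb (12.5%) and 2 with scores of at least 5 (25.7%). With absence taken to 10 kb they came to 0 (2.1%). Higher H3K4me1 windows (1) came to 0 within 100 kb (1.41%). Lower ones (1) came to 2 within 20 kb (5.58%) and 0 within 100 kb (1.42%). On the gene's own strand alone, CCGGAAG was in 8 members (18.2%, against 8.04% of all promoters) and GGGCGG in 16 (36.4%, against 40.5%). The causes were not tested, except that a shorter distance or a higher score limit leaves fewer summits by construction.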
